A study of Rattus norvegicus with 11 samples.

Results

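Leukocyte lineage markers are genes that white blood cells of one lineage transcribe and most other cells of the bladder wall do not. A set of 38 such genes was examined, listed by gene symbol, and 37 of them were among the 18507 genes of the expression table. Marco, a scavenger receptor of macrophages, was not analysed here. The 37 genes comprised 2 markers shared by all leukocytes, 13 of T and natural killer (NK) cells, 5 of B cells, 11 of macrophages, 4 of neutrophils and 2 of mast cells.

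Bulk RNA sequencing had been performed on bladder tissues of female Sprague-Dawley rats with partial bladder outlet obstruction (PBOO), a surgical model in which the bladder neck and urethra are partly tied off, and of normal rats, which according to the methods had the incision alone. There were 3 PBOO and 3 normal samples at week 4, and 2 PBOO and 3 normal samples at week 5. One PBOO sample of week 5 had been left out by the authors at library preparation. The normal samples of week 5 carry the column name adult and the PBOO samples of week 5 the name DO, while all column names of week 4 end in Input. The age of the animals is not in the labels, and the methods give the same approximate age for all rats. No transgene or agent was used in any group. Nothing in the labels links a sample to a named animal, so the p-values measure the spread between these samples.

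Ptprc encodes CD45, a phosphatase on the surface of all nucleated blood cells, and Itgb2 encodes the integrin chain with which leukocytes leave vessels. T cells are recognised by the CD3 chains of the antigen receptor, B cells by CD79 and CD20, macrophages by lysosomal and scavenger receptors and complement C1q, and neutrophils by the receptors for granulocyte colony-stimulating factor and for CXC chemokines. In an obstructed bladder these cells lie among smooth muscle, fibroblasts and urothelium, and in bulk tissue fewer cells of a type and less RNA per cell cannot be told apart.

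Expression was given as FPKM, fragments per exon length and per fragments mapped in the sample, and the columns summed to between 424961 and 564343 FPKM. Sequencing depth is unknown, since the table holds no counts. The weeks differed in how many genes were listed at 0 in all of their samples, 4871 at week 4 and 403 at week 5, so levels were compared within a week. Smooth muscle and urothelial genes, which define the tissue, were present in all 11 samples, with lowest sums of 723 and 3370 FPKM. Groups were compared with limma on log2(FPKM + 0.1) for genes averaging 0.5 FPKM or more, and a gene was called at a Benjamini-Hochberg adjusted p under 0.05 and a change of 2-fold or more. Fold changes are on this scale, so those of weakly expressed genes are understated.

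A pair of samples stood apart in the leukocyte markers. In normal week 4 replicate 1 the 11 macrophage markers summed to 123 FPKM, against 849 and 925 in the other normal samples of that week. This sample was the lowest of the 3 normal samples for 28 of the 30 leukocyte markers tested at week 4, compared with 41.0% of all genes tested. Its sum over red cell genes was 25.0 FPKM against 499 and 492, and its fibroblast sum was 1259 against 4392 and 4463, while its smooth muscle sum (17722 against 15449 and 15053) and its endothelial sum (240 against 254 and 276) lay near those of the other normal samples.

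The other sample was PBOO week 5 replicate 2, which exceeded replicate 1 in 28 of the 31 markers tested at week 5, with a median ratio of 3.23, where 53.3% of all genes were higher in replicate 2. Its red cell sum was 496 FPKM against 158 in replicate 1. The part of blood in either contrast was not tested. Results that rest on these samples are given with and without them.

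**Figure D1:**
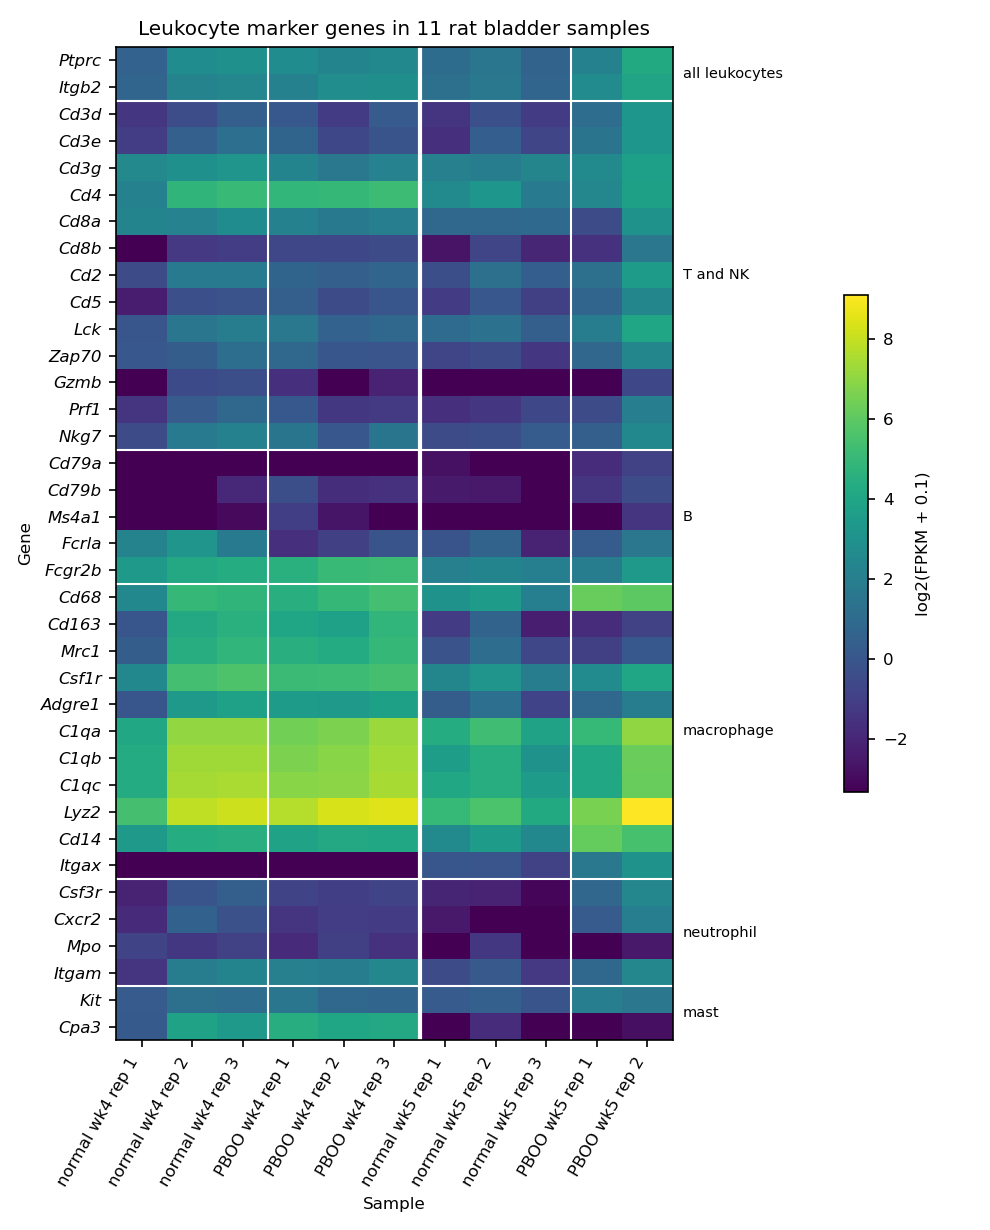
Expression of the 37 leukocyte markers (rows, grouped by lineage as named on the right) in the 11 samples (columns), coloured by log2(FPKM + 0.1). Normal week 4 replicate 1 is dark across the macrophage rows, where Csf1r read 5.45 FPKM against 41.1 and 48.9 in the other normal samples, and PBOO week 5 replicate 2 is the brightest of the week 5 columns in most rows.

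At week 5 the comparison asked whether leukocyte genes differed between obstructed and normal bladders at the later time. Of the 31 markers tested, 12 were upregulated in PBOO and none was downregulated, at a background of 7.91% of all genes upregulated and 11.4% downregulated. At an unadjusted p under 0.05 and 2-fold or more, 17 were higher and 0 lower (9.82% and 12.6% of all genes). The median log2 fold change over the 31 markers was 1.94, beside 0.12 over all genes tested. Because 6 of the 31 (Cd3d, Cd8b, Zap70, Prf1, Csf3r and Cxcr2) had a normal mean under 0.5 FPKM and passed the filter through the PBOO samples, the counts describe the genes tested and are not support by themselves. Both PBOO samples lay above all normal samples for 19 markers and below them for 0, against 35.3% and 25% of all genes.

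**Figure D2:**
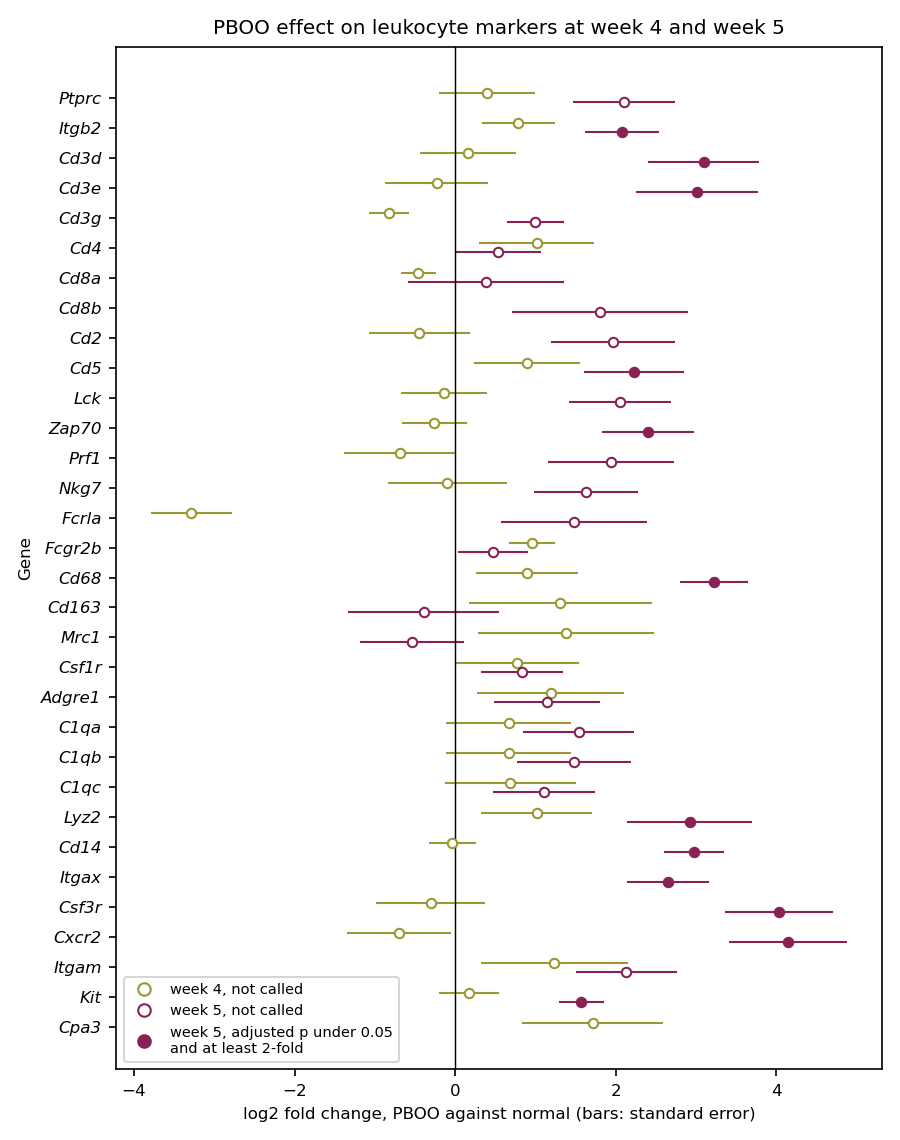
Log2 fold change of PBOO against normal (x axis, with standard errors) for each leukocyte marker tested (y axis) at week 4 and week 5, filled where the gene was called. The 12 filled points all belong to week 5 and lie between 1.57 for Kit and 4.15 for Cxcr2.

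Among macrophage markers, 4 of 11 were upregulated at week 5, beside 7.91% of all genes. Cd68, a lysosomal protein of phagocytes, read 7.99, 11.4 and 4.05 FPKM in normal samples and 73.4 and 63.1 FPKM in PBOO samples (log2 fold change 3.22, SE 0.42, adjusted p = 0.00444). Cd14, the co-receptor for bacterial lipopolysaccharide, read 5.93, 11.3 and 5.44 FPKM in normal and 71.3 and 45.1 FPKM in PBOO samples (log2 fold change 2.97, SE 0.37, adjusted p = 0.00384). For both genes every PBOO sample lay far above every normal sample, and PBOO replicate 1 was higher than replicate 2, the reverse of most markers. Of all genes, 35.3% had every PBOO sample above every normal sample at week 5.

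Itgax, which encodes the CD11c integrin chain of dendritic cells and some macrophages, read 0.892, 0.857 and 0.450 FPKM in normal and 2.99 and 8.14 FPKM in PBOO samples (log2 fold change 2.65, SE 0.51, adjusted p = 0.0150). The lysozyme gene Lyz2, the most abundant of the macrophage markers, read 31.6, 47.4 and 18.2 FPKM in normal and 96.2 and 545 FPKM in PBOO samples (log2 fold change 2.92, SE 0.78, adjusted p = 0.0399). Both genes were among the 35.3% of all genes with every PBOO sample above every normal sample. The PBOO replicates of Lyz2 differed from each other by 5.66 times.

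The other 7 macrophage markers were not called. Cd163, the haemoglobin scavenger receptor of resident macrophages, read 0.342, 1.45 and 0.103 FPKM in normal and 0.196 and 0.427 FPKM in PBOO samples (log2 fold change -0.39, 95% interval -2.73 to 1.95, adjusted p = 0.779). Mrc1, the mannose receptor, read 0.813, 2.04 and 0.519 FPKM in normal and 0.411 and 0.957 FPKM in PBOO samples (log2 fold change -0.53, interval -2.14 to 1.07, adjusted p = 0.562). The groups overlapped for both genes, and both intervals are wide.

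The receptor for the macrophage growth factor, Csf1r, read 5.16, 8.74 and 3.59 FPKM in normal and 6.18 and 15.6 FPKM in PBOO samples (log2 fold change 0.84, interval -0.44 to 2.11). C1qa, a chain of complement C1q, read 20.4, 39.1 and 13.9 FPKM in normal and 32.1 and 131 FPKM in PBOO samples (log2 fold change 1.54, adjusted p = 0.147). C1qb and C1qc had log2 fold changes of 1.48 and 1.10, and Adgre1, the F4/80 antigen, one of 1.14. In each of these 5 genes PBOO replicate 1 lay within the range of the normal samples and replicate 2 above it.

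The ratio of Cd68 to Csf1r within a sample was between 1.13 and 1.55 in the 3 normal samples of week 5, and 11.9 and 4.05 in the PBOO samples, and that of Cd14 to Csf1r was between 1.15 and 1.51 in normal and 11.5 and 2.90 in PBOO samples. The macrophage markers of week 5 therefore did not keep one proportion between normal and PBOO samples. At week 4 the Cd68 to Csf1r ratio lay between 0.559 and 0.991 in all 6 samples, while that of Cd14 to Csf1r was 1.88 in normal replicate 1 and between 0.399 and 0.495 in the other 5, so that proportion varied among normal samples as well.

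Promoter sequences are shown for a macrophage and a neutrophil gene that were upregulated at week 5 (Cd68, Csf3r) and for a pair of macrophage genes that were not called (Cd163, Mrc1), so that the windows can be compared. Each runs from 250 bases before to 50 bases after the annotated start on the gene's strand and was taken from RefSeq (GRCr8). Capitals mark the core GAGGAA of sites for PU.1, the transcription factor of myeloid cells, or its reverse complement TTCCTC.

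Cd68 (chr10:54882392-54882691, minus strand): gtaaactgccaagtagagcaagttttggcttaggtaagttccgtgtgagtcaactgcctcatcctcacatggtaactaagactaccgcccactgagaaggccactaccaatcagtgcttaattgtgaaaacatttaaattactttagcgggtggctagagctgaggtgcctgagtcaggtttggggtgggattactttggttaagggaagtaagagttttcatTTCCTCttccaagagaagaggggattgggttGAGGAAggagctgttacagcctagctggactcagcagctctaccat
Csf3r (chr5:143582970-143583269, plus strand): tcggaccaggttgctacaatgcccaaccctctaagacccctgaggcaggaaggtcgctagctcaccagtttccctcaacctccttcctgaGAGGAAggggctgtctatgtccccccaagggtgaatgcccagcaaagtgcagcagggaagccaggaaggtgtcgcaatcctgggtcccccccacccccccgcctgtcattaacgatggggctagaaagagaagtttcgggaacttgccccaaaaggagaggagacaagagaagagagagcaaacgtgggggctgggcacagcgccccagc
Cd163 (chr4:158770524-158770823, plus strand): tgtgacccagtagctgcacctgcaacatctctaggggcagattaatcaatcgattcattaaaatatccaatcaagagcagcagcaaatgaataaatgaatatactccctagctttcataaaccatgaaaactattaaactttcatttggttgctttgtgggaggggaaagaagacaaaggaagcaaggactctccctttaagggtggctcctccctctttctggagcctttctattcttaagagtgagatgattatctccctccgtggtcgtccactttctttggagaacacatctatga
Mrc1 (chr17:82157475-82157774, plus strand): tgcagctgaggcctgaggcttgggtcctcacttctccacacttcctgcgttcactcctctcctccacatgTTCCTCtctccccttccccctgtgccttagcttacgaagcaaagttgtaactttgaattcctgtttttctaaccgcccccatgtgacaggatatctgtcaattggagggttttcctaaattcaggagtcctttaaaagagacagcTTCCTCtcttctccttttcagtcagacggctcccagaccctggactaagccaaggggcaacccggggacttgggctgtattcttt

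On either strand the core was present in 7 of 10 macrophage, 3 of 4 neutrophil and 3 of 11 T and NK markers that had a promoter entry, and in 17 of 30 markers with an entry in all. Of 27457 genes with an entry, 29.2% held it. Among the 4 windows shown it occurred in the called Cd68 and Csf3r and also in Mrc1, which was not called, so its presence did not follow the calls. A match of 6 letters is a description and not a site.

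Of the markers tested at week 5, the neutrophil genes Cxcr2 and Csf3r had the largest fold changes. Both had a normal mean under 0.5 FPKM and passed the filter through the PBOO samples. Their rank therefore describes the genes tested and is not support by itself. Csf3r, the receptor for granulocyte colony-stimulating factor, read 0.141, 0.125 and 0.0159 FPKM in normal and 1.61 and 5.27 FPKM in PBOO samples (log2 fold change 4.04, SE 0.67, adjusted p = 0.00952). Cxcr2, the chemokine receptor that draws neutrophils into tissue, read 0.0816 FPKM in one normal sample, was listed at 0 in the other two, and read 1.08 and 3.86 FPKM in PBOO samples (log2 fold change 4.15, SE 0.73, adjusted p = 0.0113). The PBOO samples lay above all normal samples for both, as for 35.3% of all genes, at levels of a few FPKM.

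Itgam, the CD11b integrin chain of neutrophils and monocytes, read 0.641, 1.01 and 0.318 FPKM in normal and 1.68 and 5.20 FPKM in PBOO samples, and its log2 fold change of 2.13 did not pass adjustment (adjusted p = 0.0523). Mpo, the myeloperoxidase made by neutrophil precursors, was under the filter, with 0.300 FPKM in normal replicate 2, 0.0803 FPKM in PBOO replicate 2 and 0 listed in the other samples. The granule enzyme therefore gave no measure of these cells at week 5.

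In the T and NK group, 4 of 12 markers tested were upregulated at week 5, beside 7.91% of all genes. Cd3d, a chain of the T cell receptor complex, read 0.270, 0.706 and 0.364 FPKM in normal and 2.05 and 8.98 FPKM in PBOO samples (log2 fold change 3.09, SE 0.69, adjusted p = 0.0236). Cd3e, its partner chain, read 0.217, 1.19 and 0.503 FPKM in normal and 2.65 and 9.21 FPKM in PBOO samples (log2 fold change 3.01, SE 0.77, adjusted p = 0.0343). Zap70, the kinase that binds the activated receptor, had a log2 fold change of 2.41 (adjusted p = 0.0286), and Cd5, a surface regulator of receptor signalling, one of 2.23 (adjusted p = 0.0446). In all 4 genes both PBOO samples lay above all normal samples, as they did for 35.3% of all genes. Cd3d and Zap70 had a normal mean under 0.5 FPKM and passed the filter through the PBOO samples.

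Cd3g, the third CD3 chain, did not overlap between the groups either but was not called, with 4.10, 3.78 and 4.99 FPKM in normal and 5.80 and 12.8 FPKM in PBOO samples (log2 fold change 1.0, adjusted p = 0.0835). The ratio of Cd3g to Cd3e ranged from 3.17 to 18.9 in the normal samples of week 5 and was 2.19 and 1.39 in the PBOO samples, so these receptor chains were not in one proportion across samples. The CD3 chains lie close together in the genome, and whether reads of overlapping or neighbouring transcripts enter these values was not tested.

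Of the coreceptors, Cd4, which rat macrophages carry as well as helper T cells, had a log2 fold change of 0.53 (interval -0.79 to 1.86, adjusted p = 0.484). Cd8a read 1.64, 1.67 and 1.81 FPKM in normal samples, 0.604 FPKM in PBOO replicate 1 and 7.80 FPKM in PBOO replicate 2, so that the PBOO samples lay on opposite sides of the normal ones. Cd8b read 0.0585, 0.511 and 0.149 FPKM in normal and 0.239 and 2.89 FPKM in PBOO samples. The cytotoxic genes were highest in PBOO replicate 2, where perforin (Prf1) read 3.83 FPKM, Nkg7 5.43 FPKM and granzyme B (Gzmb) 0.556 FPKM, while in replicate 1 they read 0.626 and 1.24 FPKM and Gzmb was listed at 0. Lck, the coreceptor kinase, and Cd2, an adhesion molecule of T cells, had log2 fold changes of 2.05 and 1.96 with adjusted p = 0.0595 and 0.110.

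Itgb2 was upregulated at week 5 with 2.32, 3.05 and 1.53 FPKM in normal and 6.19 and 15.2 FPKM in PBOO samples (log2 fold change 2.08, SE 0.46, adjusted p = 0.0225). Ptprc read 2.01, 2.82 and 1.43 FPKM in normal and 4.32 and 18.6 FPKM in PBOO samples, and its log2 fold change of 2.10 did not pass adjustment (adjusted p = 0.0568). The PBOO samples lay above all normal samples for both of these general leukocyte genes, as for 35.3% of all genes.

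Of the 5 B cell markers 2 passed the filter at week 5. Cd79a and Cd79b, the signalling chains of the B cell receptor, and Ms4a1, which encodes CD20, were under the filter in both weeks, with highest week 5 values of 0.451, 0.610 and 0.273 FPKM, all in PBOO replicate 2. Fcgr2b, the inhibitory Fc receptor of B cells and myeloid cells, had a log2 fold change of 0.47 (adjusted p = 0.443), and Fcrla, an intracellular Fc receptor-like protein of B cells, one of 1.48 (adjusted p = 0.265). Of the mast cell markers, Kit, the receptor for stem cell factor that interstitial cells of the bladder can also carry, read 1.10, 1.28 and 0.845 FPKM in normal and 3.83 and 2.93 FPKM in PBOO samples (log2 fold change 1.57, SE 0.28, adjusted p = 0.0115). Cpa3, the mast cell carboxypeptidase, was at or near 0 in all 5 samples of week 5, with a highest value of 0.195 FPKM, so that a defining mast cell gene was all but absent where Kit was upregulated.

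The calls of week 5 rested on PBOO replicate 2 to different degrees. Without that sample 27 markers could be tested, 4 were upregulated (Cd68, Cd14, Itgax and Kit), beside 6.77% of all genes, and Cd8a was downregulated, beside 12.2%, with a log2 fold change of -1.36 (adjusted p = 0.0200). The median log2 fold change was then 0.84. Csf3r and Cxcr2 were under the filter in that comparison, although their values in PBOO replicate 1 lay above all normal samples. Without PBOO replicate 1 the median over 31 markers was 2.72, and the log2 fold change of Cd8a was 2.13. Without normal replicate 1, 2 or 3 the number of upregulated markers was 5 of 31, 9 of 30 or 6 of 31, beside 4.72%, 6.17% and 5.23% of all genes. Cd68, Cd14 and Itgax kept their call in each comparison that left out a normal sample.

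Other cells of the wall differed as well at week 5. All 10 smooth muscle genes were downregulated, with sums of 18555, 17908 and 19564 FPKM in normal and 1269 and 723 FPKM in PBOO samples, and so were 8 of 10 fibroblast genes. As FPKM is a share of all fragments, a lower share of muscle RNA moves with higher values of other genes, and its part in the leukocyte markers was not tested. The endothelial sum was 105, 152 and 121 FPKM in normal and 132 and 197 FPKM in PBOO samples.

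**Figure D3:**
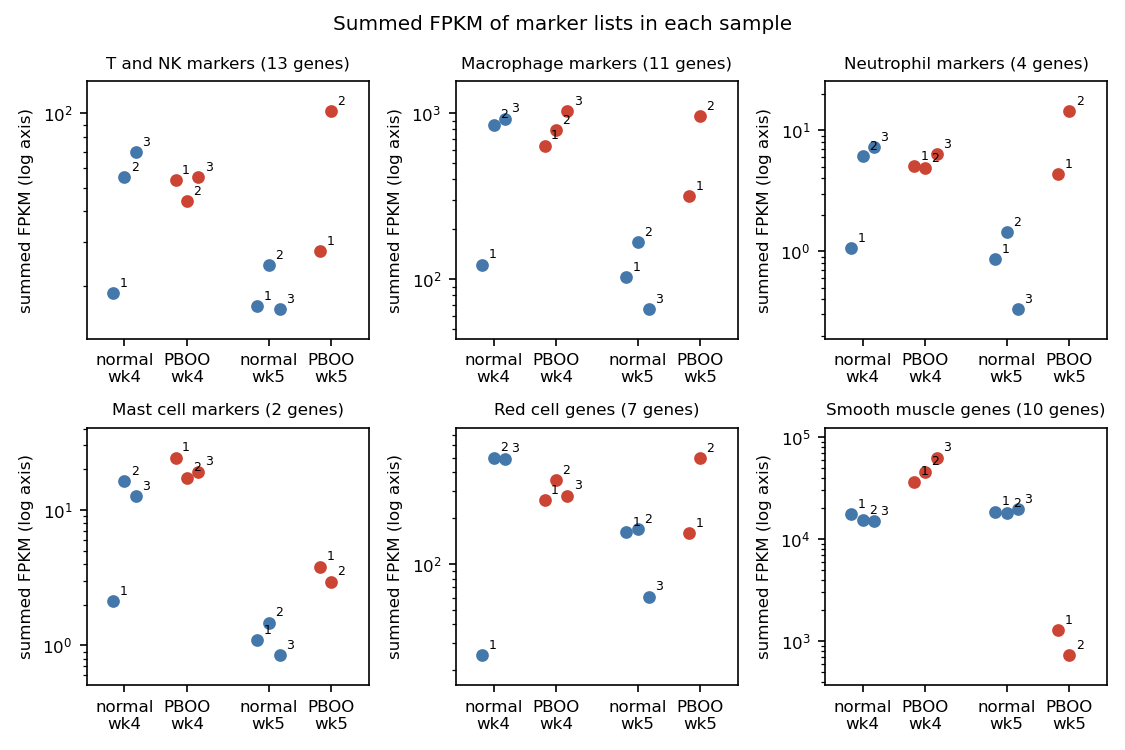
Summed FPKM of marker lists (y axis, log scale) in each of the 11 samples, with the replicate number beside each point and normal and PBOO samples in blue and red. The macrophage sum of normal week 4 replicate 1 (123 FPKM) lies far below the other samples of week 4, and the smooth muscle sums of the PBOO samples of week 5 (1269 and 723 FPKM) lie far below all others.

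At week 4 none of the 30 markers tested was called by limma in either direction, where 0.265% of all genes were upregulated and 0.106% downregulated. At an unadjusted p under 0.05 and 2-fold or more, 0 were higher and 1 was lower, at a background of 2.46% and 2.45%. The median log2 fold change over the markers was 0.53, beside -0.25 over all genes tested. Fcrla, Csf3r and Cxcr2 had a PBOO mean under 0.5 FPKM and passed the filter through the normal samples. All PBOO samples lay above all normal samples for 2 markers (Fcgr2b and Cpa3) and below them for 3 (Cd3g, Cd8a and Fcrla), against 6.63% and 34.9% of all genes.

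The gene lower at the unadjusted threshold was Fcrla, with 4.60, 8.85 and 3.31 FPKM in normal and 0.227, 0.412 and 0.827 FPKM in PBOO samples (log2 fold change -3.29, SE 0.50, unadjusted p = 0.000311, adjusted p = 0.0503). Every PBOO sample lay below every normal sample, as for 34.9% of all genes. The defining B cell genes gave no such picture, as Cd79a was listed at 0 in all 6 samples, and Cd79b read 0.164 FPKM in one normal sample and 0.680, 0.206 and 0.240 FPKM in PBOO samples. Fcgr2b read 10.4, 18.0 and 20.4 FPKM in normal and 23.2, 33.6 and 36.4 FPKM in PBOO samples (log2 fold change 0.96, adjusted p = 0.0884).

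Macrophage markers at week 4 had a median log2 fold change of 0.83 over 10 genes, and the groups overlapped for all 10. Cd68 read 5.40, 30.6 and 27.3 FPKM in normal and 22.9, 30.9 and 41.3 FPKM in PBOO samples. Cd163 read 0.890, 18.0 and 23.5 FPKM in normal and 16.1, 13.6 and 28.9 FPKM in PBOO samples. In both genes the 3 PBOO samples lay around normal replicates 2 and 3, and only normal replicate 1 was low.

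Without normal replicate 1 the median of the macrophage markers was -0.19, and 9 of all 30 markers had a log2 fold change above 0, compared with 18 of 30 with it. The median over the 30 markers was then -0.34. None was called, and 5 were lower at the unadjusted threshold (Cd2, Prf1, Fcrla, Csf3r and Cxcr2), beside 3.03% of all genes, with adjusted p between 0.0871 and 0.195. Normal replicate 1 was set apart for its low values in these same markers, so a downward shift without it follows from that choice. Fcrla, Csf3r and Cxcr2 had a PBOO mean under 0.5 FPKM and passed the filter through the normal samples. These values describe the samples and are not support for a decrease. Cxcr2 read 1.34 and 0.758 FPKM in normal replicates 2 and 3 and 0.267, 0.382 and 0.348 FPKM in PBOO samples, and 0.176 FPKM in normal replicate 1.

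**Figure D4:**
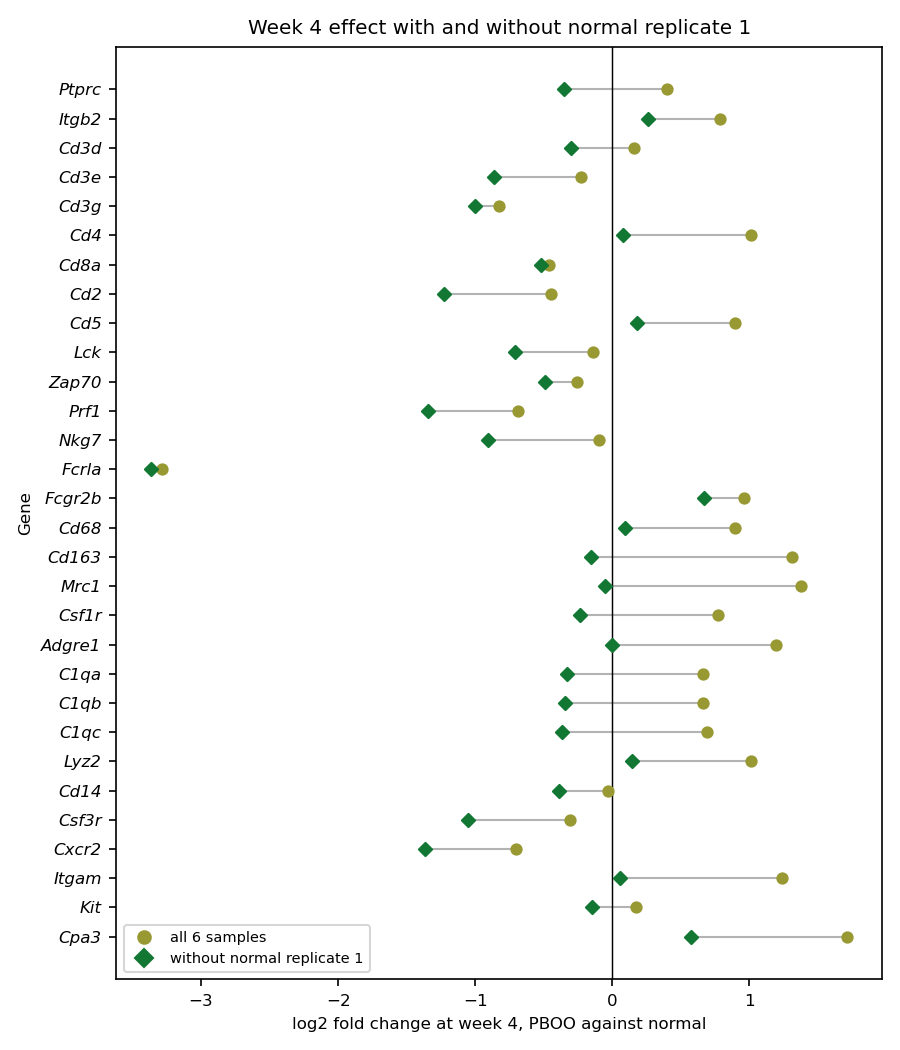
Log2 fold change at week 4 (x axis) for each of the 30 leukocyte markers tested (y axis), with all 6 samples (circles) and without normal replicate 1 (diamonds). Nearly all diamonds lie to the left of their circles, and the median moves from 0.53 to -0.34. The sample left out was set apart for its low values in these same markers.

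In the T and NK group at week 4, Cd3g read 5.61, 7.498 and 8.66 FPKM in normal and 4.79, 2.99 and 4.41 FPKM in PBOO samples (log2 fold change -0.83, adjusted p = 0.0911), with no overlap. Cd8a likewise lay lower in each PBOO sample (4.27, 3.11 and 3.82 FPKM against 4.69, 4.45 and 6.45 FPKM), with a log2 fold change of -0.46 (adjusted p = 0.190). Of all genes, 34.9% had every PBOO sample below every normal sample at week 4, and the all-gene median log2 fold change was -0.25. Cd4, at 4.31, 27.7 and 34.0 FPKM in normal and 30.2, 31.1 and 36.2 FPKM in PBOO samples, was low in normal replicate 1 as the macrophage markers were. Itgax was listed at 0 in all 6 samples of week 4, as were the 4871 genes named above, and no statement on its level at that time was possible.

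Mast cell genes were present at week 4. Cpa3 read 1.04, 14.0 and 10.6 FPKM in normal and 21.5, 15.7 and 17.7 FPKM in PBOO samples (log2 fold change 1.71, SE 0.88, adjusted p = 0.214), with the PBOO samples above all normal ones. Of all genes, 6.63% had every PBOO sample above every normal sample at week 4. Without normal replicate 1 the log2 fold change of Cpa3 was 0.57. Kit read 1.08, 2.28 and 2.09 FPKM in normal and 2.84, 1.71 and 1.54 FPKM in PBOO samples, and the groups overlapped.

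Whether the PBOO effect differed between the weeks was tested with the interaction of PBOO and week over all 11 samples, with an adjusted p under 0.05 and no fold threshold. Of 31 markers tested, 9 had a higher log2 fold change at week 5 than at week 4 and 0 a lower one, against 26.5% and 13.5% of all genes, so that the share of markers, 29.0%, was near the background. With an unadjusted p under 0.05, 13 were higher and 0 lower (34.6% and 15.7% of all genes). The median difference over all genes tested was 0.35. Cd14 had the smallest adjusted p, with a difference of 3.01 (SE 0.51, adjusted p = 0.00165), from a log2 fold change of -0.03 at week 4 to 2.97 at week 5. The differences of Cxcr2 and Csf3r were 4.85 (SE 0.99) and 4.34 (SE 1.01). For Cd68 the difference of 2.33 missed the threshold (adjusted p = 0.0604), and for Cd163 it was -1.70 (interval -5.37 to 1.97). Without normal week 4 replicate 1 the number was 18 of 31, beside 23.6% of all genes. That sample was set apart for its low values in these same markers, so a rise without it follows in part from that choice and is not support. Without PBOO week 5 replicate 2, which leaves 1 PBOO sample at that week, the median difference over 29 markers was 0.66. With all samples it was 1.40 over 31 markers.

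The proportions of genes within a sample also differed by week, in normal and PBOO tissue alike. The ratio of C1qb to C1qa was between 1.11 and 1.19 in the 6 samples of week 4 and between 0.523 and 0.584 in the 5 samples of week 5. The ratio of C1qc to C1qa was between 1.15 and 1.38 at week 4 and between 0.512 and 0.840 at week 5. These chains are built into one protein complex, and no sample of one week reached the range of the other. Week and any difference in how the columns were made cannot be told apart, so no level was compared across weeks. Nor can they be told apart in the differences of the PBOO effect between weeks given above.

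**Figure D5:**
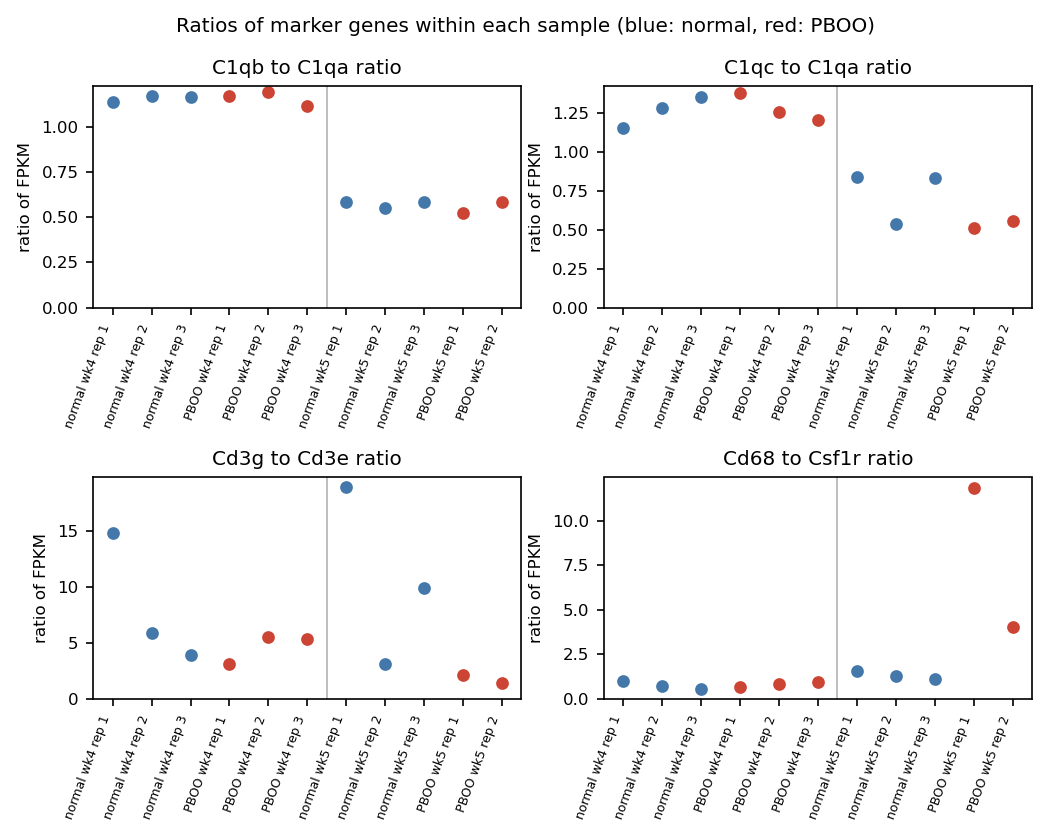
Ratio of FPKM values of pairs of markers (y axis) in each sample (x axis), normal in blue and PBOO in red, with a line between the weeks. The C1qb to C1qa ratio is 1.11 to 1.19 at week 4 and 0.523 to 0.584 at week 5 in both groups, and the Cd68 to Csf1r ratio is highest in the PBOO samples of week 5 (11.9 and 4.05).

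Further genes of the same cell types, which were not among the 38, were read from lists written beside them. At week 5, 19 of 55 tested were upregulated and 1 downregulated, against 7.91% and 11.4% of all genes. At week 4, 0 of 59 were called, where 0.265% of all genes were upregulated and 0.106% downregulated. At the unadjusted threshold 5 were higher and 2 lower at week 4 (2.46% and 2.45% of all genes). How many of these genes passed the filter only through the group where they were high was not counted. These counts and those of each list therefore describe the genes tested. Of 11 T and NK genes 5 were upregulated at week 5, among them Ctla4 (log2 fold change 3.52) and Foxp3 (2.74), an inhibitory receptor and the defining transcription factor of regulatory T cells. Foxp3 read 0.178, 0.223 and 0.261 FPKM in normal and 1.11 and 3.65 FPKM in PBOO samples. Its normal values were all under 0.5 FPKM, so it passed the filter through the PBOO samples. The groups did not overlap, where 35.3% of all genes had every PBOO sample above every normal sample at week 5.

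Of 8 neutrophil genes 4 were upregulated. S100a9, a calprotectin subunit abundant in neutrophils, read 1.73, 0.740 and 0.589 FPKM in normal, 8.87 FPKM in PBOO replicate 1 and 287 FPKM in PBOO replicate 2 (log2 fold change 5.64, SE 1.42, adjusted p = 0.0338). Its PBOO samples differed more from each other than replicate 1 did from the normal samples. Of 5 B cell genes 3 were upregulated, Cd72 (3.46), Blk (2.88) and Cd37 (1.70), beside CD79 genes that were too low to test. Another of the 5 went the other way, with a log2 fold change of -1.90, and was lower at the unadjusted threshold but not called. Of 21 macrophage genes 5 were upregulated, with the metal transporter Slc11a1 (3.65) the highest, and of 8 dendritic cell genes 2, the homing receptor Ccr7 (2.83) and the actin-bundling protein Fscn1 (1.97).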

How the data were processed

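The authors prepared TruSeq libraries, sequenced them in pairs on a HiSeq4000, trimmed the reads with SeqPrep and Sickle, mapped them with HISAT2, assembled transcripts with StringTie and deposited FPKM values from featureCounts for each gene and sample. The submitters' processing notes name the build mm10, a mouse build, and bcl2fastq 2.0. The annotation and strand of counting are not given in the sources used here. Depth is unknown, and no test on counts was run.

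All 11 columns were assigned to groups from the sample labels. Each week was fitted alone in R 4.3.3 with limma 3.58.1 (lmFit, eBayes with a trend) on log2(FPKM + 0.1), for 11320 genes at week 4 and 13685 at week 5 with a mean of at least 0.5 FPKM. The difference between weeks was an interaction over 11 samples and the 11296 genes detected in both weeks that passed the same filter. Adjusted p-values are Benjamini-Hochberg over all genes tested. Intervals are 95% intervals of the fit. The steps were tested on simulated data. Tables and figures were made with Python 3.11.15, pandas 2.3.3, numpy 2.4.6 and matplotlib 3.10.9.

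The genes, lists and tests were chosen with earlier results of these data known. Any of the 38 markers could be named, and of other leukocyte lists up to 3 called genes with the largest fold change. Not every gene eligible under this rule is reported here. Alternatives were other pseudocounts, filters, scalings and fold thresholds, eBayes without a trend, one fit over 11 samples, a replicate block and leaving out each sample.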

Additional observations from a re-analysis of the deposited data

Results flagged for a closer look

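For 9 leukocyte markers the log2 fold change of PBOO against normal differed between week 5 and week 4 (limma interaction over 11 samples, Benjamini-Hochberg adjusted p under 0.05), each being higher at week 5. They are 29.0% of the 31 markers tested, and 26.5% of all genes were higher by the same test, so the share is near the background. Week and any difference in how the columns were made cannot be told apart in these differences. The differences were 2.93 for Cd3d (SE 0.97, adjusted p = 0.0360), 3.24 for Cd3e (SE 1.08, adjusted p = 0.0358), 1.83 for Cd3g (SE 0.45, adjusted p = 0.00999) and 2.66 for Zap70 (SE 0.72, adjusted p = 0.0156) among T cell genes. Fcrla had a difference of 4.77 (SE 1.07, adjusted p = 0.00675), from -3.29 at week 4 to 1.48 at week 5, where neither effect was itself called. Cd14 had one of 3.01 (SE 0.51, adjusted p = 0.00165), Csf3r one of 4.34 (SE 1.01, adjusted p = 0.00773), Cxcr2 one of 4.85 (SE 0.99, adjusted p = 0.00423) and Kit one of 1.40 (SE 0.50, adjusted p = 0.0477).

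The calls of Cd3g, Fcrla, Cd14 and Csf3r held in all 11 comparisons that left out 1 sample, and that of Cxcr2 in the 10 in which it could be tested. Zap70 kept its call in 10 of 11, losing it without PBOO week 5 replicate 2, and lost it also with the replicate block. Cd3d kept its call in 5, Cd3e in 4 and Kit in 2 of the 11. Cd3d and Cd3e lost it also after median-ratio scaling. Kit lost it also without a filter on low values, after median-ratio scaling and with the replicate block. The comparisons without a PBOO sample of week 5 leave 1 in that group, so its spread is not measured there.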

How the results depend on the processing

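At week 5 the number of upregulated markers, 12, lay between 10 and 15 under other pseudocounts, filters, scalings and thresholds, and between 4 and 25 when 1 sample was left out (lower: 0 to 1). At week 4 Fcrla was called lower (1 marker) with a pseudocount of 1, a mean of at least 1 FPKM or one fit over 11 samples, and 0 to 1 markers were called in each direction when 1 sample was left out. At the unadjusted threshold 1 marker was higher at week 4 without a filter, after median-ratio scaling, after quantile normalization, with the replicate block and without a fold threshold (0 to 2 with 1 sample left out), and 2 were lower without a fold threshold (1 to 5). Differences between weeks numbered 6 to 18 with 1 sample of a group of 3 left out. They numbered 6 after median-ratio scaling, which moved the all-gene median at week 4 from -0.25 to -0.01. The cause of these shifts was not tested. With 1 sample of a group of 3 left out, 4.72% to 6.17% of all genes were upregulated at week 5. At week 4, 0% to 2.61% were upregulated and 0% to 3.75% downregulated (1.52% to 3.42% and 1.59% to 5.63% at the unadjusted threshold). For the difference between weeks, 20.6% to 30.7% of all genes were higher. Shares of all genes under the other settings, with the replicate block among them, are not given here.

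Some uncalled week 4 values changed sign after scaling, Lck to 0.10, Nkg7 to 0.14 and Cd14 to 0.22 (median-ratio) and Nkg7 to 0.011 and Cd14 to 0.16 (quantile). With 1 sample left out, week 4 log2 fold changes ranged from -0.35 to 0.82 for Ptprc, -0.30 to 0.60 for Cd3d, -0.86 to 0.27 for Cd3e, -0.71 to 0.23 for Lck, -0.54 to 0.065 for Zap70, -0.91 to 0.41 for Nkg7, -0.15 to 2.14 for Cd163, -0.051 to 2.20 for Mrc1, -0.24 to 1.33 for Csf1r, -0.33 to 1.16 for C1qa, -0.34 to 1.17 for C1qb, -0.37 to 1.24 for C1qc, -0.39 to 0.18 for Cd14 and -0.15 to 0.36 for Kit. At week 5 they ranged from -0.12 to 1.19 for Cd4, -1.36 to 2.13 for Cd8a, -0.27 to 1.21 for Fcgr2b and -1.07 to 0.026 for Cd163.

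Samples of the same number were compared by their deviations from the group means. These correlated at between -0.02 and 0.23 at week 4 and between -0.001 and 0.12 at week 5. Samples of different numbers correlated at between -0.21 and 0.09 at week 4 and between -0.16 and 0.16 at week 5. With so few pairs, and 2 PBOO samples at week 5 whose deviations mirror each other, this cannot decide whether the numbers pair the samples. With the replicate block 13 markers were upregulated at week 5 (3 lost and 4 gained), 0 were called at week 4 and 8 differed between weeks.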

Other observations

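Of 12 further mast cell genes, 10 were tested at week 4 and 2 at week 5, and none was called at week 4. Cma1, Tpsab1 and Tpsb2, which encode the mast cell proteases chymase and tryptase and are named here after their values were seen, had week 4 log2 fold changes of 1.45, 1.88 and 1.41 with adjusted p = 0.104, 0.0778 and 0.118. Other genes of the list went the other way, with -0.98 for the monoamine transporter Slc18a2 (adjusted p = 0.0802), -0.87 for the transcription factor Gata2 (adjusted p = 0.154) and -0.14 for Mcpt1. Cma1 read 2.09, 7.88 and 7.05 FPKM in normal and 16.1, 11.95 and 13.0 FPKM in PBOO samples of week 4, and normal replicate 1 was again the lowest.

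At week 5 the 10 genes under the filter included these proteases, and Cma1 read at most 1.09 FPKM. Gata2, which other cells also express, read between 126 and 181 FPKM and had a log2 fold change of -0.04. Slc18a2 was downregulated at week 5, with 1.32, 1.30 and 1.27 FPKM in normal and 0.569 and 0.528 FPKM in PBOO samples (log2 fold change -1.11, SE 0.28, adjusted p = 0.0346). Of 9 nerve and glia genes tested at week 5, 7 were downregulated as well. Which cells the Slc18a2 value came from was not tested.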
